A study of Homo sapiens with 9 samples.

Results

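The 10 genes described here act inside the bone morphogenetic protein (BMP) pathway as brakes or as direct targets: the secreted antagonists NOG, GREM1 and CHRD, the pseudoreceptor BAMBI, the inhibitory SMADs SMAD6 and SMAD7, and the transcriptional inhibitors ID1, ID2, ID3 and ID4. They were taken by gene symbol from a table of 46427 genes, and all 10 were among the 20685 genes with enough counts to be tested. RNA was sequenced from 9 libraries of H9, an established line of human embryonic stem cells (hESC), 3 for each of 3 groups. The groups were untreated hESC, untreated neural progenitor cells (NPC) 11 days into differentiation towards midbrain dopamine neurons (control NPC), and day 11 NPC treated with bafilomycin A1 (BafA1 NPC), which blocks the vacuolar proton pump and thereby lysosomal acidification and autophagic clearance. The series asks what a block of autophagy changes in neural progenitors and concerns the WNT pathway protein Dishevelled.

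Both NPC groups were differentiated in medium with 200 nM LDN193189, which blocks the kinase of BMP type I receptors, and 10 µM SB431542, which blocks the receptors for TGF-beta, activin and NODAL. Purmorphamine at 2 µM, a Hedgehog activator, and CHIR99021 at 3 µM, a GSK3 inhibitor that activates WNT signalling, were added for part of the time. The BafA1 dose was 10 nM, applied for 6 h. Several day ranges are named for the exposure, without saying which one applies to the sequenced cells. All libraries come from a single cell line. The libraries of a group are labelled as biological replicates without saying whether they came from separate differentiations, so the p-values measure the spread between these libraries.

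BMP ligands bind paired receptor kinases, which phosphorylate SMAD1, SMAD5 and SMAD9. These enter the nucleus with SMAD4 and switch on genes, among which the ID genes, SMAD6, SMAD7 and BAMBI are textbook early targets, so that several of the 10 genes are at once readouts of the pathway and its negative feedback. In the early neural tube, low BMP activity permits neural fate, secreted antagonists from the midline and the mesoderm hold it down, and ID proteins keep progenitors from differentiating by tying up the E proteins that proneural factors need.

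Values of single genes are normalised read counts (CPM, counts scaled to a common library size), given as mean ± SD over 3 libraries, and they compare a gene with itself between groups. Changes are log2 changes with their standard error (SE) from edgeR's quasi-likelihood test, with p adjusted over all genes tested, and a gene was called at an adjusted p under 0.05. The hESC libraries held 55706968 to 66544642 counts each, those of control NPC 49479733 to 56054194, and those of BafA1 NPC 43124679 to 69703791. Libraries of a group differed from each other by more than sampling noise (chi-square per degree of freedom 11.3 to 75.4), so none was a copy of another. In bulk libraries, fewer cells that express a gene and less of its RNA per cell cannot be told apart.

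In BafA1 NPC against control NPC, the antagonists NOG and GREM1, the inhibitory SMADs SMAD7 and SMAD6, BAMBI and ID4 were higher, while ID2 and ID3 were lower. CHRD and ID1 did not pass the test. NOG and GREM1 had the largest changes, 4.15-fold and 3.28-fold, followed by SMAD7 at 2.72-fold. Thus 6 of 10 genes were called higher and 2 lower, where 20.8% of all genes tested were called higher and 20.7% lower. The median log2 change of the 10 genes was 0.58, and that of all genes tested was 0. All genes split into 4309 higher and 4277 lower. With library totals alone, which moved the median of all genes by -0.12, the split was 3104 to 5681, and with limma on log2(FPKM + 1) it was 2686 to 5297.

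In control NPC against hESC, 6 of the 10 genes were higher (GREM1, NOG, ID4, SMAD6, ID3 and ID2), 3 were lower (CHRD, SMAD7 and BAMBI), and ID1 did not pass. Of all genes tested, 33% were called higher and 31.6% lower in that comparison. In BafA1 NPC against hESC, 4 genes were higher (GREM1, NOG, ID4 and SMAD6) and 3 were lower (CHRD, SMAD7 and ID1), beside 35.5% and 34.8% of all genes. Each pair of these comparisons shares a group of libraries, so the values are given side by side and do not support each other.

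**Figure D1:**
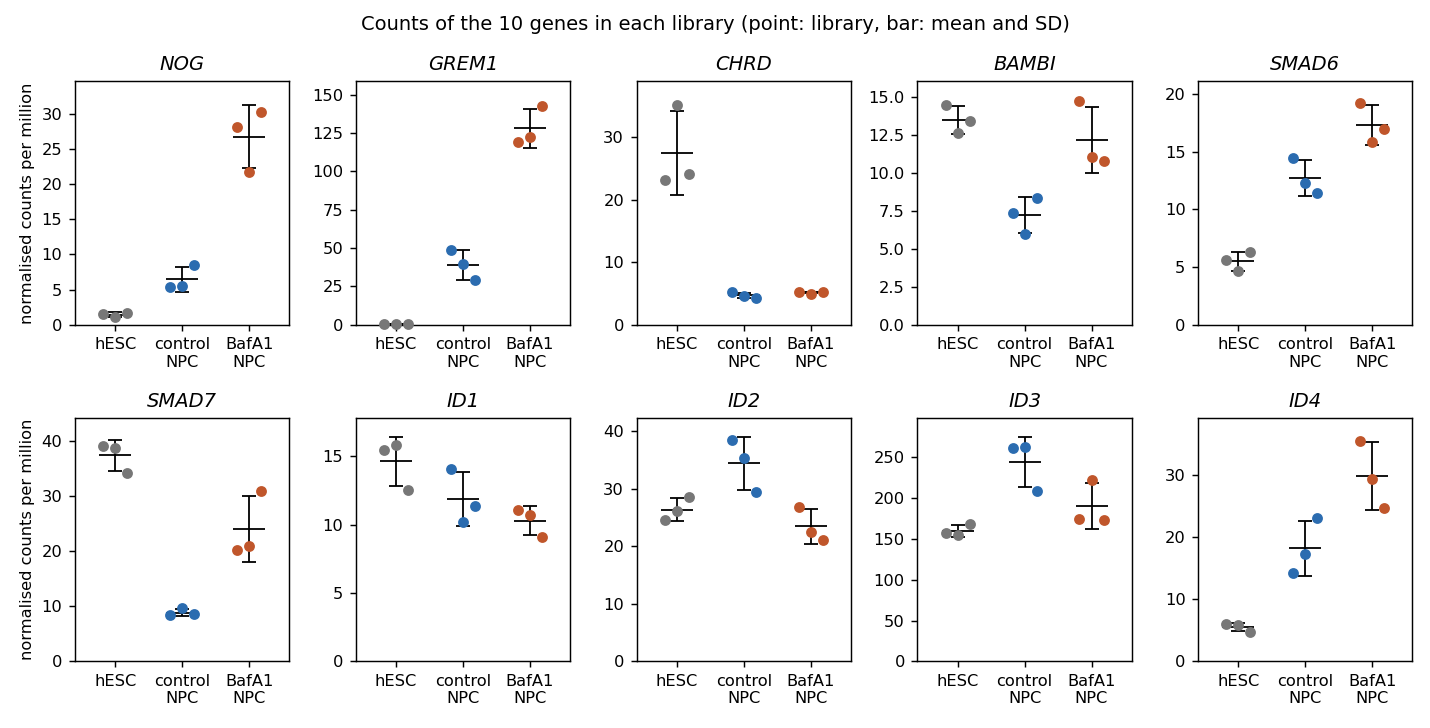
Normalised counts (CPM) of each of the 10 genes (vertical axes, linear from 0) in the 3 libraries of hESC, control NPC and BafA1 NPC. Points are libraries and bars the mean and SD. NOG, GREM1 and SMAD7 have all 3 BafA1 NPC libraries well above the 3 control NPC libraries, and the ID3 groups overlap.

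NOG encodes noggin, a secreted protein that binds BMP ligands and keeps them from their receptors. The gene lies on chromosome 17 at chr17:56593699-56595611 (GRCh38.p14). Its 3 hESC libraries held 1.54, 1.09 and 1.69 CPM, the control NPC libraries 5.31, 5.53 and 8.45, and the BafA1 NPC libraries 28.1, 21.7 and 30.3. The 3 groups did not overlap, with hESC lowest, BafA1 NPC highest and control replicate 3 the highest of the control libraries. NOG rose from 6.43 ± 1.75 CPM in control NPC to 26.7 ± 4.45 in BafA1 NPC (log2 change 2.05, SE 0.21, edgeR adjusted p = 3.35e-05). From hESC to control NPC it rose by a similar factor (4.46-fold, log2 change 2.16, SE 0.23, edgeR adjusted p = 4.75e-06), and BafA1 NPC stood 18.5-fold above hESC.

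GREM1 encodes gremlin 1, a secreted antagonist of the DAN family that binds chiefly BMP2, BMP4 and BMP7. It lies at chr15:32718004-32745106 (GRCh38.p14). It was almost silent in hESC, with 16, 21 and 25 counts or 0.246, 0.387 and 0.426 CPM. Control NPC had 48.8, 39.5 and 29.004 CPM and BafA1 NPC 119, 123 and 143 CPM. Again no library of a group reached the range of another group. The rise from hESC to control NPC was 111-fold (log2 change 6.80, SE 0.25, edgeR adjusted p = 5.54e-10), the largest among the 10 genes. BafA1 NPC were a further 3.28-fold higher than control NPC (128 ± 12.8 against 39.1 ± 9.91 CPM, log2 change 1.71, SE 0.16, edgeR adjusted p = 2.51e-05). Markers of mesenchyme, a known source of gremlin 1, were summed in the same libraries and were at 1141 to 1888 CPM in control NPC against 2078 to 2308 CPM after BafA1. COL1A1 made up most of that sum (1963 ± 130 against 1211 ± 361 CPM). PDGFRA and PDGFRB of the same list also rose, 1.40-fold and 1.31-fold, and COL3A1 and TWIST1 did not pass. LUM, PRRX1 and DCN fell 3.19-fold, 2.90-fold and 10.9-fold, DCN from a low 1.73 ± 0.333 to 0.167 ± 0.117 CPM. The part of cells with these markers in the level of GREM1 was not tested.

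The deposited FPKM values, which divide counts by transcript length, showed a larger step for GREM1 than the counts did. The 3 control NPC libraries had 3.01, 2.47 and 3.01 FPKM and the 3 BafA1 NPC libraries 12.6, 9.61 and 19.2 FPKM. With limma on log2(FPKM + 0.1) the change was 2.19, against 1.71 on counts. Dividing count by FPKM gives the mean transcript length that the authors' estimate assigned to a gene, scaled here on 1627 genes with a single transcript. For GREM1, listed with 4 transcripts, it was 15.3, 15.4 and 15.3 kb in hESC, from few counts. It was 14.7, 14.7 and 8.63 kb in control NPC and 8.01, 9.90 and 6.21 kb in BafA1 NPC. The assigned GREM1 length was thus shorter in the BafA1 NPC libraries and in control replicate 3 than in the other 2 control libraries, and the groups overlap in length. SMAD6 moved little by the same measure, from 4.00 to 4.74 kb over the 9 libraries, and SMAD7 stayed between 3.08 and 3.13 kb. The antisense gene GREM1-AS1, which overlaps GREM1, had 0 to 7 counts in a library.

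**Figure D2:**
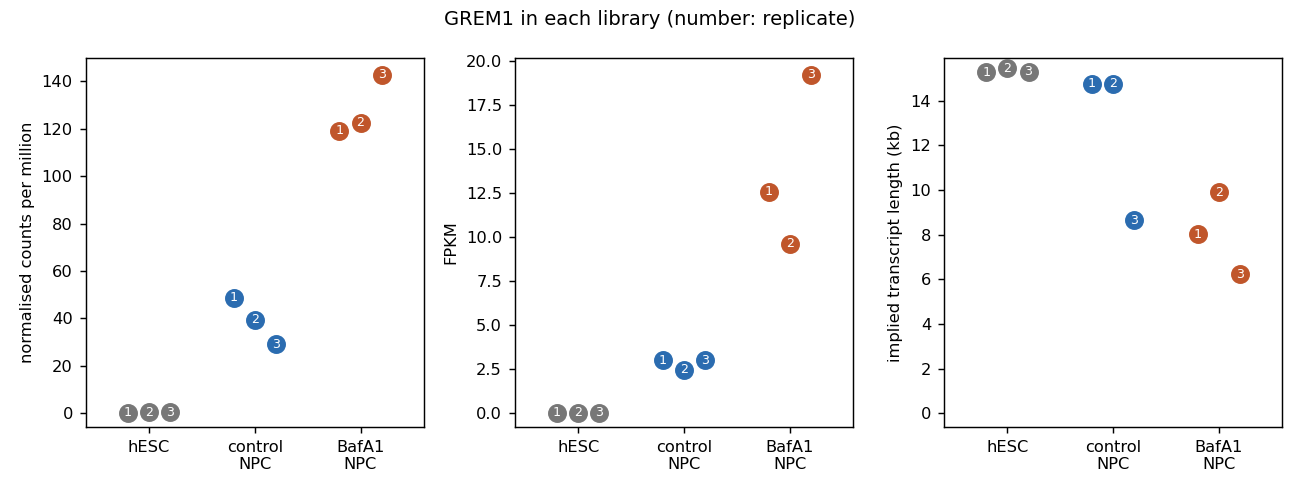
GREM1 in each library as normalised counts in CPM (left), as FPKM (middle) and as the transcript length in kb implied by counts over FPKM (right). Points are libraries and carry their replicate number. Control replicate 3, at 8.63 kb, lies among the BafA1 NPC libraries (6.21 to 9.90 kb) in length but not in level.

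GREM1 has a GC-rich promoter. The 250 bases before the first of its annotated RefSeq starts (chr15:32717754-32718003, plus strand, GRCh38.p14) are shown because GREM1 had the largest change of the 10 genes from hESC to control NPC and its window holds several of the motifs searched. Capitals mark matches on either strand to GGCGCC and CAGACA, both known SMAD-binding letters, and to the CCAAT box.
GREM1: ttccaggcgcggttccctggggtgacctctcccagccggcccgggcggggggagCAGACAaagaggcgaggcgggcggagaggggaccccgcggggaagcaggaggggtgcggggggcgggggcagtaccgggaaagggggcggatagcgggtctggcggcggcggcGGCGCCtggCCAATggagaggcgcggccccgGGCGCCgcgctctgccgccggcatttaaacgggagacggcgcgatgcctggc
GGCGCC occurred 2 times and CAGACA and CCAAT 1 time each, and the GC content was 76.8%. Of 35116 promoter windows of this length in the table, 16.4% hold GGCGCC, 13.6% hold CAGACA and 32% hold CCAAT. These shares are over windows of any GC content. The window at the other annotated start of GREM1 holds none of these letters. A match is a run of letters and not an observed binding site.

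CHRD encodes chordin, the third secreted antagonist, and it went the other way over differentiation. It lies at chr3:184380054-184390739 (GRCh38.p14). Its hESC libraries held 23.2, 35.3 and 24.1 CPM, the control NPC libraries 5.20, 4.60 and 4.28, and the BafA1 NPC libraries 5.23, 5.00 and 5.26. CHRD was 5.86-fold lower in control NPC than in hESC (log2 change -2.55, SE 0.17, edgeR adjusted p = 7.98e-08). In BafA1 NPC against control NPC it did not pass (log2 change 0.14, SE 0.17, edgeR adjusted p = 0.532), and the groups overlapped. The sign of this change was negative (-0.13) once GC and length trends were removed.

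On the FPKM scale, where levels of different genes can be set side by side, the secreted antagonists differed in make-up between hESC and NPC. NOG, GREM1 and CHRD summed to 6.46 to 8.88 FPKM in hESC, which overlapped the 6.27 to 7.97 FPKM of control NPC. In BafA1 NPC the sum was 19.4 to 33.5 FPKM, above every library of the other groups. GREM1 made up 0.216 to 0.364% of that sum in hESC, 37.7 to 44.2% in the control NPC group, and 48.1 to 57.3% after BafA1. In hESC most of the sum was CHRD (6.71 ± 1.45 FPKM), whereas in BafA1 NPC it was GREM1 (13.8 ± 4.92) and NOG (11.4 ± 2.33), whose ranges overlapped each other. The GREM1 FPKM rests on the shifting length given above, so the sums were also taken as CPM per kb of all exons of a gene, a fixed length. On that scale the sum was 4.33 to 5.93 in hESC libraries, 6.32 to 7.10 in those of control NPC, and 20.6 to 26.6 after BafA1. The GREM1 share was then 28.0 to 48.2% in control NPC, which covers the 34.2 to 40.7% after BafA1, so the higher share after BafA1 is seen with FPKM alone. NOG (14.1 ± 2.35) was then above GREM1 (8.78 ± 0.876) in BafA1 NPC.

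BAMBI encodes a transmembrane protein that resembles a type I receptor but lacks the kinase domain, and it dampens BMP and TGF-beta signals. It lies at chr10:28677521-28682932 (GRCh38.p14). The hESC libraries held 14.4, 12.6 and 13.4 CPM, the control NPC libraries 7.34, 5.96 and 8.34, and the BafA1 NPC libraries 14.7, 11.0 and 10.8. BAMBI was lower in control NPC than in hESC (log2 change -0.90, SE 0.16, edgeR adjusted p = 0.000339). It was 1.69-fold higher in BafA1 NPC than in control NPC (12.2 ± 2.20 against 7.21 ± 1.19 CPM, log2 change 0.75, SE 0.16, edgeR adjusted p = 0.00292), with no overlap. Between BafA1 NPC and hESC the difference was -0.15 (SE 0.16, edgeR adjusted p = 0.410), so the test did not separate these groups. The promoter window of BAMBI held GGCGCC 3 times and was 81.2% GC. That of CHRD, which did not pass in BafA1 NPC against control NPC, held GGCGCC 1 time and was 81.6% GC. No GGCGCC was in the windows of SMAD6, SMAD7, ID2, ID3 and ID4, which were called in that comparison. A link between these letters and the changes was not tested.

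SMAD7 encodes an inhibitory SMAD that binds activated type I receptors of both the BMP and the TGF-beta branch and recruits ubiquitin ligases to them. It lies at chr18:48919853-48950965 (GRCh38.p14). Levels were 39.1, 38.7 and 34.1 CPM in hESC, 8.39, 9.60 and 8.57 in the control NPC group, and 20.2, 21.0 and 30.9 after BafA1. The groups did not overlap, and BafA1 NPC lay between the other groups. SMAD7 fell 4.21-fold from hESC to control NPC (log2 change -2.07, SE 0.16, edgeR adjusted p = 2.45e-07). It was 2.72-fold higher in BafA1 NPC than in control NPC (24.0 ± 5.99 against 8.85 ± 0.650 CPM, log2 change 1.44, SE 0.15, edgeR adjusted p = 4.38e-05). Against hESC it was still lower in BafA1 NPC (log2 change -0.63, SE 0.15, edgeR adjusted p = 0.00224), a call lost when GC and length trends were removed (-0.28, edgeR adjusted p = 0.116).

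SMAD6, the inhibitory SMAD that acts mainly on the BMP branch, lies at chr15:66702236-66782849 (GRCh38.p14). It had 5.58, 4.64 and 6.29 CPM in hESC, 14.5, 12.2 and 11.5 in the control NPC group, and 19.2, 15.8 and 16.9 after BafA1. SMAD6 rose from hESC to control NPC (2.31-fold, log2 change 1.21, SE 0.15, edgeR adjusted p = 1.59e-05). That is the reverse of SMAD7 in the same libraries. In BafA1 NPC it was 1.36-fold higher than in control NPC (17.3 ± 1.73 against 12.7 ± 1.57 CPM, log2 change 0.45, SE 0.14, edgeR adjusted p = 0.0252), with no overlap. This call was lost without control NPC replicate 2 or 3 (edgeR adjusted p = 0.0876 and 0.0759) and without BafA1 NPC replicate 1 or 3 (0.0738 and 0.0523). It was also lost with library totals alone (log2 change 0.32, edgeR adjusted p = 0.113) and with GC and length trends removed (0.31, edgeR adjusted p = 0.0572).

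The promoter of SMAD6 (chr15:66701986-66702235, plus strand, GRCh38.p14) is shown because it holds the full palindrome GTCTAGAC, to which SMAD3 and SMAD4 are known to bind, in capitals.
SMAD6: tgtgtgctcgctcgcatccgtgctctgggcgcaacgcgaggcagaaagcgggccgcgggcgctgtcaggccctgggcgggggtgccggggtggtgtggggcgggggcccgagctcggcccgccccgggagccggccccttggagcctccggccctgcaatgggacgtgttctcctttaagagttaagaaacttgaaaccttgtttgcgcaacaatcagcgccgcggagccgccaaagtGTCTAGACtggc
The match starts at position -12 from the annotated start and reads the same on both strands. In all, 64 of the 35116 windows (0.182%) hold these letters. The windows at the 3 annotated starts of SMAD7 do not hold them.

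The ID proteins are helix-loop-helix factors without a DNA-binding region. They pair with E proteins and keep these from activating neurogenic genes. The 4 genes did not move in 1 direction in BafA1 NPC against control NPC: ID2 and ID3 fell, ID4 rose and ID1 did not pass.

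ID1, at chr20:31605289-31606510 (GRCh38.p14), had 15.5, 15.8 and 12.5 CPM in hESC, 14.1, 10.2 and 11.4 in the control NPC group, and 11.1, 10.7 and 9.08 after BafA1. Neighbouring groups overlapped. The change was -0.21 in BafA1 NPC against control NPC (SE 0.15, edgeR adjusted p = 0.293) and -0.30 in control NPC against hESC (SE 0.15, edgeR adjusted p = 0.0947). BafA1 NPC against hESC passed (log2 change -0.51, SE 0.15, edgeR adjusted p = 0.00920). The first of these was called with GC and length trends removed (-0.49, edgeR adjusted p = 0.0345) and with limma on log2(FPKM + 1) (-0.32, adjusted p = 0.0494). The second was called without hESC replicate 3 (-0.40, edgeR adjusted p = 0.0497) or control NPC replicate 1 (-0.44, edgeR adjusted p = 0.0225). The third lost its call with GC and length trends removed (-0.34, edgeR adjusted p = 0.0901).

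ID2, at chr2:8682056-8684461 (GRCh38.p14), had 24.5, 26.0 and 28.6 CPM in hESC, 38.4, 35.3 and 29.4 in the control NPC group, and 26.8, 22.5 and 21.1 after BafA1. Control NPC was the highest group, with no control library within the range of another group, while hESC and BafA1 NPC overlapped. ID2 fell 1.46-fold in BafA1 NPC against control NPC (23.5 ± 3.01 against 34.4 ± 4.60 CPM, log2 change -0.55, SE 0.12, edgeR adjusted p = 0.00386). From hESC to control NPC it rose 1.30-fold (log2 change 0.38, SE 0.12, edgeR adjusted p = 0.0154). Leaving out hESC replicate 1 or control NPC replicate 1 ended that call (edgeR adjusted p = 0.0684 and 0.0648).

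ID3, at chr1:23557926-23559501 (GRCh38.p14), was the most abundant ID gene per length. It had 157, 154 and 168 CPM in hESC, 262, 263 and 209 in the control NPC group, and 174, 222 and 173 after BafA1. It rose from hESC to control NPC (1.53-fold, log2 change 0.61, SE 0.12, edgeR adjusted p = 0.000731). In BafA1 NPC it was 1.29-fold lower than in control NPC (log2 change -0.37, SE 0.12, edgeR adjusted p = 0.0289). There the groups overlapped, because BafA1 NPC replicate 2 lay above control NPC replicate 3. The call was lost without control NPC replicate 1 or 2 (edgeR adjusted p = 0.0919 and 0.110), without BafA1 NPC replicate 1 or 3 (0.0786 and 0.106), and in a fit to these 2 groups alone (0.0586).

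ID4, at chr6:19837370-19842197 (GRCh38.p14), is known for its part in the timing of neural differentiation. It had 5.99, 5.89 and 4.79 CPM in hESC, 14.3, 17.3 and 23.0 in the control NPC group, and 35.4, 29.3 and 24.6 after BafA1. The groups did not overlap, but the lowest BafA1 NPC library was close to the highest control library. ID4 rose 3.27-fold from hESC to control NPC (log2 change 1.71, SE 0.19, edgeR adjusted p = 6.56e-06). In BafA1 NPC it rose a further 1.64-fold (29.8 ± 5.41 against 18.2 ± 4.43 CPM, log2 change 0.71, SE 0.18, edgeR adjusted p = 0.00758). With limma on log2(FPKM + 1), unfiltered, the change was 0.48 and did not pass (adjusted p = 0.0704).

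**Figure D3:**
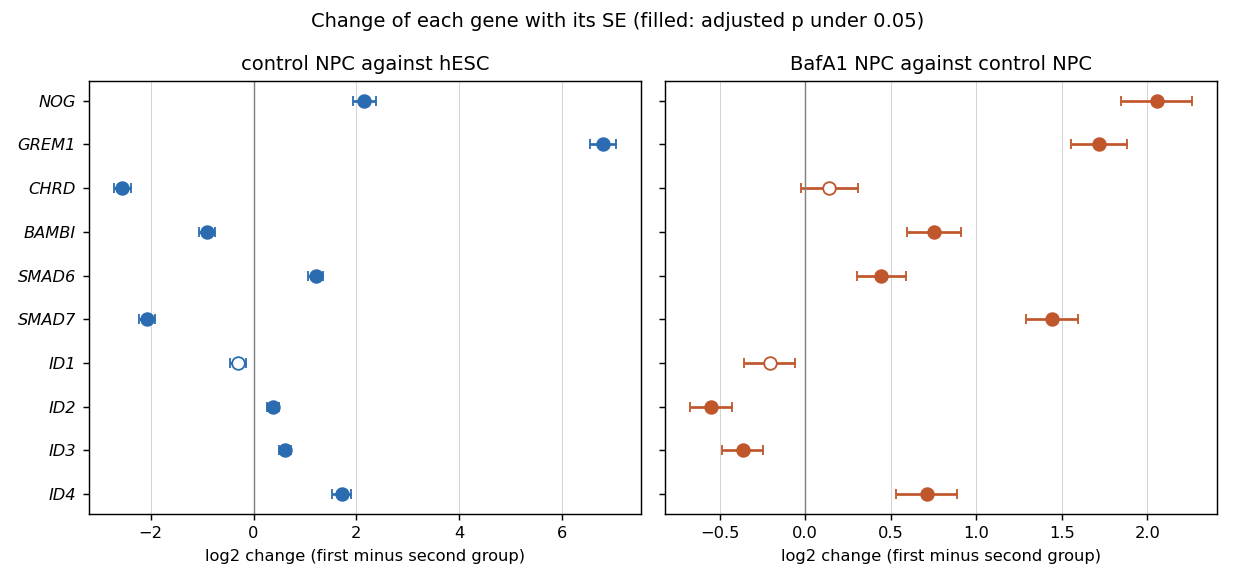
Log2 change of each gene (horizontal axes, of different range) with its SE for control NPC against hESC (left) and BafA1 NPC against control NPC (right). Filled points passed an adjusted p of 0.05 in edgeR. NOG, GREM1, SMAD6 and ID4 are above 0 in both panels, and SMAD7, BAMBI, ID2 and ID3 change sign between the panels, which share the control NPC libraries.

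Promoters of the 3 ID genes that passed in BafA1 NPC against control NPC are set side by side, the 250 bases before the start in each case, because ID2 and ID3 moved one way and ID4 the other. Capitals mark CCAAT on either strand and the TATA box TATAAA.
ID2: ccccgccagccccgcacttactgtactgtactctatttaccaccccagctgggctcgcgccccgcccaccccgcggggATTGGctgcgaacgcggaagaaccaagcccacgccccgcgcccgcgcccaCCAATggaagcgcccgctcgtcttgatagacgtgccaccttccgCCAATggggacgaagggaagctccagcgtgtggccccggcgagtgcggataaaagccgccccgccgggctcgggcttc
ID3: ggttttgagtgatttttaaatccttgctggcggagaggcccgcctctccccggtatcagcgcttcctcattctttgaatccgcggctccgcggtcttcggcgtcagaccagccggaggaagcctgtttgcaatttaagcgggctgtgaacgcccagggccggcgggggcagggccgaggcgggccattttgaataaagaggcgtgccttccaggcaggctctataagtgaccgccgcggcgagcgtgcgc
ID4: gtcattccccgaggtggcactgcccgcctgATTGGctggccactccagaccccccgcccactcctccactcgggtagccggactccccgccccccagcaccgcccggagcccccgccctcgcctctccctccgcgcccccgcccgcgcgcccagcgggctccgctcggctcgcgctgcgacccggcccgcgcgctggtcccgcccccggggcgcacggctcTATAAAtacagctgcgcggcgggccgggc
The ID2 window (chr2:8681806-8682055, plus strand, GRCh38.p14) held CCAAT 3 times. The ID4 window (chr6:19837120-19837369, plus strand) held CCAAT 1 time, far from the start, and TATAAA at position -29. The ID3 window (chr1:23559502-23559751, minus strand) held none of the letters searched. TATAAA occurs in 10.7% of the windows in the table. The E-box letters CACGTG, found in 6.34% of windows, were in none of the promoters of the 9 matched genes, and NOG had no entry in the table.

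Summed over the 4 genes, ID messenger RNA was 176 ± 8.39 FPKM in hESC, 270 ± 35.2 in the control NPC group, and 190 ± 15.3 after BafA1. The control NPC sums, 290, 291 and 230 FPKM, lay above those of the other groups, and BafA1 NPC (187, 207 and 177) overlapped hESC (173, 171 and 186). As CPM per kb of exons the sums were 148 to 180.5 in control NPC and 124 to 155 after BafA1, so these groups overlapped, and hESC (113 to 119) lay below both. ID3 made up 81.3 to 86.9% of the FPKM sum in every library. The share of ID4 differed between groups, at 0.704 ± 0.105% in hESC, 1.61 ± 0.601% in the control NPC group, and 3.29 ± 0.692% after BafA1, with no overlap between groups. The size of the ID4 share depends on the length used: as CPM per kb of exons it was 2.07 ± 0.296%, 4.71 ± 1.69% and 9.31 ± 1.79%, again with no overlap. These shares are descriptions and were not tested.

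**Figure D4:**
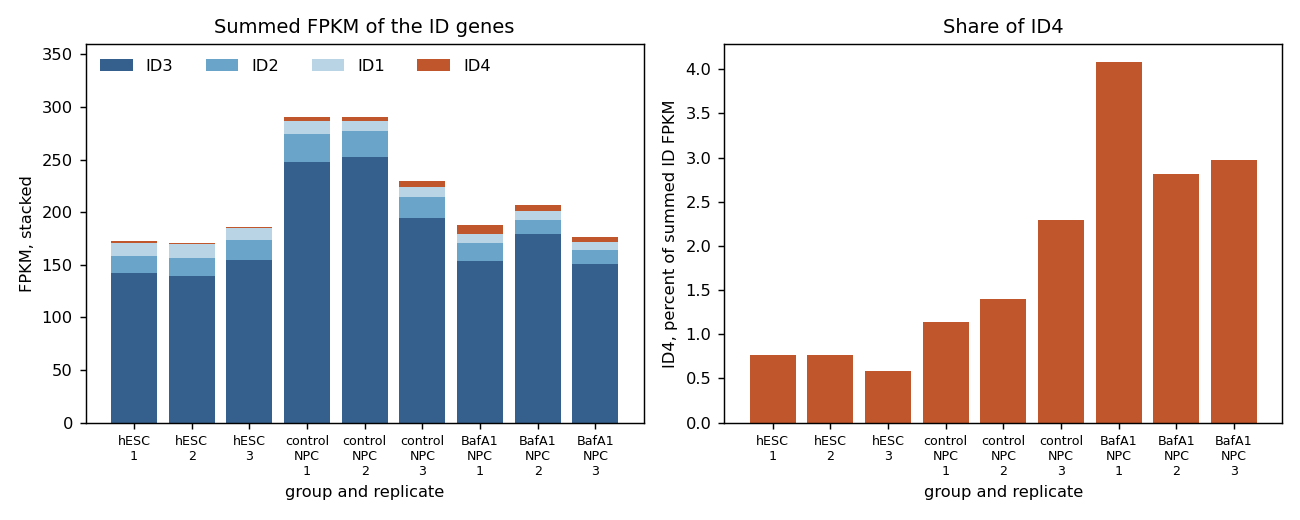
Left, FPKM of the 4 ID genes stacked for each of the 9 libraries. Right, ID4 as a percent of the summed ID FPKM of the library. ID3 fills most of every bar, and the ID4 share is 0.582 to 0.770% in hESC, 1.14 to 2.29% in the control NPC group, and 2.81 to 4.08% after BafA1.

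Per length, the order of the 10 genes in control NPC was ID3 (232 ± 32.3 FPKM), ID2 (23.8 ± 3.41), ID1 (10.7 ± 1.77), ID4 (4.22 ± 0.978), BAMBI (3.83 ± 0.580), NOG (3.01 ± 0.777), GREM1 (2.83 ± 0.313), SMAD7 (2.58 ± 0.224), SMAD6 (2.48 ± 0.282) and CHRD (1.18 ± 0.125). From ID4 to SMAD6, the libraries of each gene overlapped those of the next in the order. In BafA1 NPC, GREM1 overlapped ID2 (14.7 ± 2.29), NOG lay just below ID2 and overlapped ID1 (8.27 ± 0.922), and GREM1 and NOG both lay above SMAD7 (6.38 ± 1.73), ID4 (6.24 ± 1.25) and BAMBI (5.84 ± 1.24), which overlapped each other. In hESC, SMAD7 (10.5 ± 0.642), BAMBI (6.88 ± 0.483) and CHRD (6.71 ± 1.45) followed ID3, ID2 and ID1, and NOG (0.645 ± 0.149) and GREM1 (0.0201 ± 0.00553) came last. As CPM per kb of exons, ID4 stood higher in the order of BafA1 NPC, at 12.7 ± 2.31 beside ID2 at 10.6 ± 1.36. On that scale the mean of GREM1 (8.78 ± 0.876) was below both and that of NOG (14.1 ± 2.35) above both. The place of GREM1 above ID4 thus holds on FPKM alone.

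The ligands that these antagonists bind also changed. Of 12 BMP and GDF ligand genes tested, 5 rose and 1 fell in BafA1 NPC against control NPC (median log2 change 0.70). For this and the other lists in that comparison, 20.8% of all genes tested were called higher and 20.7% lower, with a median change of 0. BMP7 rose from 178 ± 29.3 to 374 ± 47.3 CPM (log2 change 1.08, SE 0.13, edgeR adjusted p = 7.81e-05). BMP2 rose from 9.21 ± 0.791 to 19.5 ± 6.08 CPM (log2 change 1.09, SE 0.23, edgeR adjusted p = 0.00265) and BMP5 by 0.69 (SE 0.15, edgeR adjusted p = 0.00408). The other calls were at low levels. BMP8A (0.535 ± 0.201 against 0.258 ± 0.0913 CPM) and GDF6 (1.30 ± 0.309 against 0.708 ± 0.171 CPM) rose, and GDF10 (0.269 ± 0.0427 against 0.608 ± 0.177 CPM) fell. BMP4 did not pass (90.3 ± 22.8 against 75.5 ± 16.7 CPM, edgeR adjusted p = 0.277). The count of ligands that rose was 3 without control NPC replicate 3 or BafA1 NPC replicate 1, and also with library totals alone. The fall of GDF10 lost its call without control NPC replicate 1 or 2 or BafA1 NPC replicate 2 or 3, and with the replicate number as a block.

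Over differentiation, 7 of the 12 ligand genes rose and 2 fell from hESC to control NPC. Beside this and the other lists in that comparison, 33% of all genes tested were called higher and 31.6% lower. The median change of all genes there was 0.03. BMP7 went from 10.8 ± 0.780 to 178 ± 29.3 CPM (log2 change 4.04) and BMP4 from 1.98 ± 0.301 to 75.5 ± 16.7 (log2 change 5.25). BMP5, without a count in hESC, was at least 211-fold higher in control NPC, against a floor of 3 counts per library.

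Of 10 genes tested that encode receptors or co-receptors for these ligands, 4 fell, 1 rose and 5 did not pass in BafA1 NPC against control NPC (median log2 change -0.28), beside 20.7% lower and 20.8% higher among all genes. BMPR1A, a type I receptor, fell from 65.9 ± 3.04 to 45.0 ± 4.60 CPM (log2 change -0.55, SE 0.09, edgeR adjusted p = 0.000503). BMPR1B fell by 0.56 (SE 0.21, edgeR adjusted p = 0.0480), near the threshold, and ENG and ACVR2A also fell. ACVR1, another type I receptor, rose by 0.58 (SE 0.08, edgeR adjusted p = 0.000262), and BMPR2, the type II receptor, did not pass (-0.24, edgeR adjusted p = 0.157). The count of receptors that fell was 1 or 2 in place of 4 without hESC replicate 3, any control NPC library, or BafA1 NPC replicate 2 or 3, and 2 with GC and length trends removed. In control NPC against hESC, 5 receptor genes rose and 3 fell, among them the co-receptor genes RGMB (182.7 ± 23.8 against 21.7 ± 1.40 CPM) and RGMA (log2 change 1.36, SE 0.11).

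Among the SMAD transducers, their cofactors and ubiquitin ligases, 4 of 11 fell and 1 rose in BafA1 NPC against control NPC (median log2 change -0.24), beside 20.7% lower and 20.8% higher among all genes. SMAD1, which carries the BMP signal, fell from 23.9 ± 1.42 to 16.3 ± 0.769 CPM (log2 change -0.55, SE 0.09, edgeR adjusted p = 0.000622). SMAD9 rose from 5.13 ± 1.87 to 10.4 ± 2.12 CPM (log2 change 1.01, SE 0.24, edgeR adjusted p = 0.00549), and SMAD5 was level at 84.2 ± 2.34 and 84.2 ± 15.6 CPM. The common partner SMAD4 did not pass (-0.20, edgeR adjusted p = 0.0555). ZNF423, a cofactor of BMP SMADs, fell by 0.89 (SE 0.14), TOB1, an inhibitor of BMP SMADs, by 0.63 (SE 0.09), and SKIL, a SMAD corepressor, by 0.55 (SE 0.16). With library totals alone 8 of the 11 were lower. In control NPC against hESC 4 rose and 3 fell, among the latter SKIL by 1.07 (SE 0.16) and the SMAD phosphatase gene PPM1A by 0.68 (SE 0.10). The rises there numbered 2 without any single hESC library, control NPC replicate 3 or BafA1 NPC replicate 1, and with GC and length trends removed.

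Of 19 other extracellular antagonists and modulators tested, 5 rose and 3 fell in BafA1 NPC against control NPC, and their median change, 0.02, was near that of all genes. CRIM1, which binds BMP ligands at the cell surface, rose from 43.6 ± 10.6 to 92.4 ± 24.9 CPM (log2 change 1.09, SE 0.19, edgeR adjusted p = 0.000975). FSTL3 rose by 0.88 (SE 0.13) and FSTL1 by 0.40 (SE 0.08). TWSG1, a partner of chordin, fell by 0.43 (SE 0.11, edgeR adjusted p = 0.00881). Follistatin (FST) did not pass (105 ± 22.01 against 90.3 ± 15.6 CPM, edgeR adjusted p = 0.288). It had risen by 4.69 from hESC to control NPC (SE 0.19). In that comparison 10 of the 19 rose and 6 fell. NBL1, a DAN family antagonist, rose by 3.27 (SE 0.21), and BMP1, a protease that cleaves chordin, by 2.14 (SE 0.12).

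Other genes that BMP is known to induce gave a mixed picture in BafA1 NPC against control NPC: 4 of 11 rose and 7 did not pass. RUNX2, a master regulator of bone, rose from 14.6 ± 0.654 to 45.3 ± 4.64 CPM (log2 change 1.63, SE 0.11, edgeR adjusted p = 4.68e-06). MSX1, a homeobox gene, rose by 0.84 (SE 0.20, edgeR adjusted p = 0.00502), and GATA3 by 2.09 (SE 0.48) at 2.03 ± 0.278 CPM. MSX2 did not pass (-0.30, edgeR adjusted p = 0.417). VENTX, the fourth, had no count in control NPC and 0.114 ± 0.117 CPM in BafA1 NPC. That mean is 2.12 times the floor of 3 counts per library and its SD exceeds it, so this rise rests on few counts. Without control NPC replicate 3, and also with library totals alone, 1 gene of the list was called lower. From hESC to control NPC, 10 of the 11 rose and VENTX fell, with MSX1 at 0.149 ± 0.0634 and 23.0 ± 0.687 CPM. DLX5, GATA2 and GATA3, also among the rises, reached only 0.616, 0.409 and 0.479 CPM in control NPC. In that comparison 2 genes of the list were called lower without control NPC replicate 1 or BafA1 NPC replicate 1. ATOH8 rose by 6.58 there (SE 0.22), MSX2 by 6.10 (SE 0.40) and RUNX2 by 3.69 (SE 0.13). The median log2 change there was 4.92, or 4.55 with genes that had no count in a group set to their bound.

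The E proteins that ID proteins bind did not pass in BafA1 NPC against control NPC. TCF3 changed by 0.12 (edgeR adjusted p = 0.292), TCF4 by -0.28 (0.0501) and TCF12 by 0.02 (0.858). Of the 12 helix-loop-helix genes tested, 4 rose and 8 did not pass, with a median of 0.64. HES1, a Notch effector, rose from 63.6 ± 9.01 to 95.9 ± 8.55 CPM (log2 change 0.59, SE 0.11, edgeR adjusted p = 0.00161). OLIG2 rose from 1.57 ± 0.0722 to 3.70 ± 0.548 CPM and HES5 from 0.381 ± 0.268 to 1.73 ± 1.26 CPM. NEUROG1 rose from 0.714 ± 0.0984 to 1.44 ± 0.270 CPM. The number that rose was 2 without control NPC replicate 1 or 2 and with GC and length trends removed, and 1 gene was called lower without control NPC replicate 3 or BafA1 NPC replicate 1 and with library totals alone. In control NPC against hESC 8 of the 12 rose and 3 fell, with TCF12 up by 0.86 (SE 0.09), TCF3 down to -0.28 (SE 0.08) and OLIG2 to -1.76 (SE 0.17).

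Genes of the TGF-beta, activin and NODAL branch, which SB431542 blocks and which SMAD7 also restrains, gave 5 rises and 1 fall among 10 tested in BafA1 NPC against control NPC (median log2 change 0.40). CCN2, a matrix-associated growth factor gene, rose from 101 ± 9.94 to 322 ± 8.57 CPM (log2 change 1.68, SE 0.09, edgeR adjusted p = 2.97e-06), and TGIF1, a SMAD corepressor, rose by 0.66 (SE 0.10). TGFBR1, the type I receptor, fell by 0.56 (SE 0.10, edgeR adjusted p = 0.000830). In place of 1 gene, 2 were called lower without control NPC replicate 3 or BafA1 NPC replicate 1. The same number was called lower with library totals alone and with GC and length trends removed. From hESC to control NPC, LEFTY1, a NODAL target and antagonist, fell from 143 ± 4.27 to 0.108 ± 0.0935 CPM, LEFTY2 fell from 41.0 ± 2.73 to 0.360 ± 0.234, and SMAD3 rose by 2.69 (SE 0.08).

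**Figure D5:**
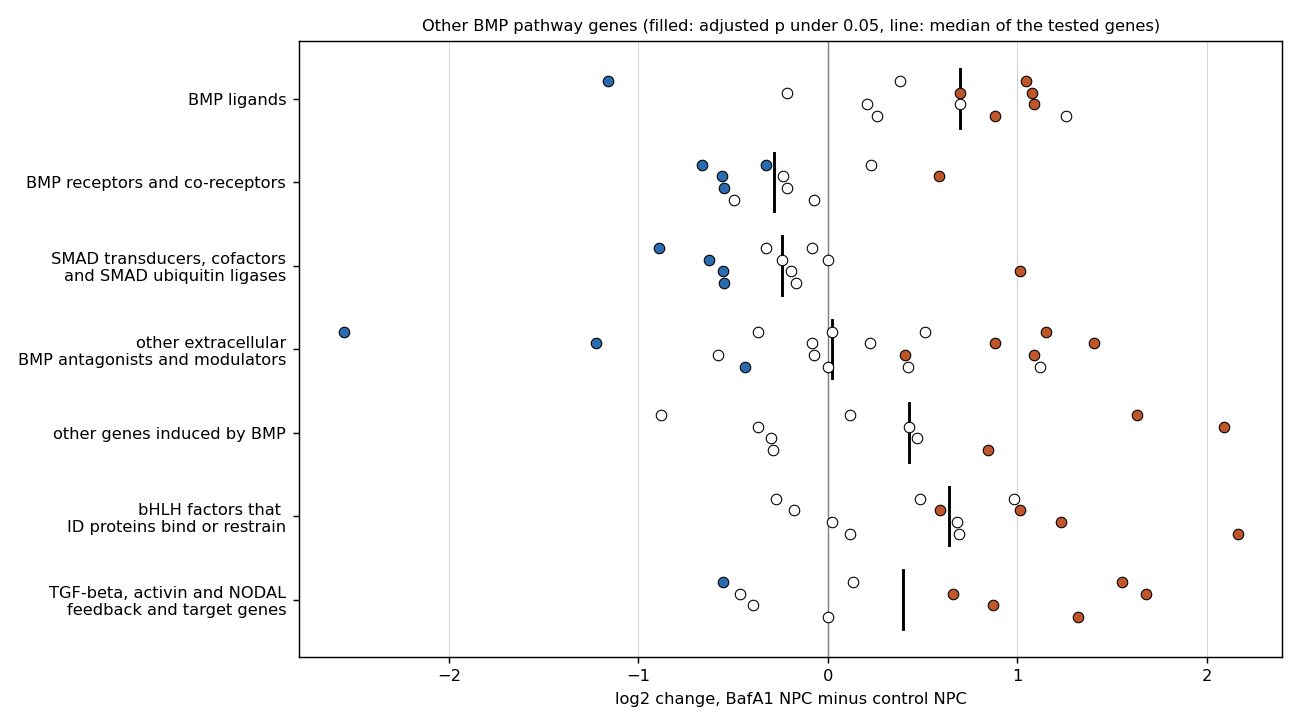
Log2 change in BafA1 NPC against control NPC of the tested genes of 7 lists of other BMP and TGF-beta pathway genes. Filled points passed an adjusted p of 0.05 in edgeR (orange higher, blue lower), vertical lines are medians of the tested genes, and genes with no count in a group are not drawn. The ligand median lies at 0.70 and the receptor median at -0.28.

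Across the 9 libraries, the genes whose pattern was most like that of GREM1, among 12189 with at least 5 CPM on average, were MRC2 (Pearson's r 0.9991), THBD (0.9991) and ELFN1 (0.9976). For NOG they were PER2 (0.9985), EEF1AKMT3 (0.9984) and ULBP1 (0.9977), and for SMAD7 they were PYCR1 (0.9908), DLGAP1 (0.9886) and MTHFD1L (0.9878). PYCR1 had 185.6 ± 4.74, 65.5 ± 3.50 and 122.5 ± 20.3 CPM in hESC, control NPC and BafA1 NPC. The 9 points are 3 groups of 3, so such values mostly reflect group means and are a description.

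The labelled cell types were checked against marker lists. Pluripotency markers summed to 4540 to 4814 CPM in hESC, and the 6 NPC libraries had 580 to 887 CPM, where most of the rest was LIN28A and TDGF1 had no count. Neural progenitor markers summed to 468 to 512 CPM in hESC, 918 to 974 CPM in control NPC and 937 to 1148 CPM after BafA1, mostly NES and SOX2. In control NPC, SOX1 had 23.9, PAX6 0.380 and LHX2 0.252 CPM. After BafA1, SOX2 and PAX6 were higher, SOX1 was lower, and NES, PAX3, FABP7 and LHX2 did not pass. Midbrain floor plate markers summed to 121 to 141 CPM in hESC libraries, 408 to 728 CPM in those of control NPC, and 525 to 704 CPM after BafA1. Summed markers of cells that are known sources of BMP antagonists or ligands also differed. In NPC each sum was mostly a single gene, so it does not show how many such cells were present. Mesenchyme markers summed to 82.9 to 88.2 CPM in hESC libraries, 1141 to 1888 CPM in those of control NPC, and 2078 to 2308 CPM after BafA1. Of these 8 markers, COL1A1, PDGFRA and PDGFRB were higher in BafA1 NPC than in control NPC, and LUM, DCN and PRRX1 were lower. The genes listed for roof plate and dorsal midline summed to 56.7 to 75.3 CPM in the control NPC libraries, against 29.6 to 56.7 CPM after BafA1. Of these 7 genes LMX1B, which made up most of the sum, and ZIC1 were lower, WNT1 was higher at under 1 CPM, and GDF7, BMP6, WNT3A and RSPO1 did not pass. The lower sum thus mostly follows LMX1B and is not a measure of roof plate cells. The keratinocyte genes KRT5 and KRT14 and the neural crest gene FOXD3 had no count in NPC. The part of these cell types in the levels of NOG, GREM1 and the other genes was not tested.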

How the data were processed

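The kit was a TruSeq protocol for stranded mRNA, per the labels. Per the submitters' processing notes, trimming used Trimmomatic and the genome was GRCh38. No source used here names the aligner or the counter, or says whether counting used strand. Per the file headers, the authors deposited raw counts per gene as whole numbers, and the FPKM of each gene in each library.

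Counts were tested with edgeR 4.0.16 in R 4.3.3: filterByExpr, TMM scaling, quasi-likelihood tests from a fit of group means to all 9 libraries, two-sided, and Benjamini-Hochberg adjustment over 20685 genes. The code was tested on simulated data. Alternatives used limma 3.58.1 on log2 FPKM, DESeq2 1.42.0, other scalings and left-out libraries. The 10 genes, the lists of 97 other pathway genes, the markers and the tests were chosen with earlier results of these data known. The text names all 10 genes, up to 3 called genes per list with the smallest adjusted p and at least 1 CPM in a group (for each of the first 2 comparisons), core pathway genes set with that rule, and the 3 genes most like each of the 3 of the 10 with the smallest adjusted p. Other list genes named were chosen after their values were seen. Promoters are RefSeq (GRCh38.p14) for 9 of 10 genes. The 6 motifs, spelled out above, were searched on both strands; the only overlapping matches are TATAAA on opposite strands in ID1.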

Additional observations from a re-analysis of the deposited data

How the results depend on the processing

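Over 20 alternatives per gene, NOG, GREM1, BAMBI, SMAD7 and ID2 kept their direction and call in BafA1 NPC against control NPC, at 1.62 to 2.30, 1.54 to 2.19, 0.50 to 0.87, 1.02 to 1.57 and -0.70 to -0.46. With GC and length trends removed, ID1 in control NPC against hESC turned to 0.15 (0.153, and 0.1496 with the replicate block) and CHRD in BafA1 NPC against control NPC to -0.13 (-0.1292, and -0.1287 with the replicate block); neither was called. The cause was not tested. That setting also left 1 of the 10 genes lower in BafA1 NPC against hESC, with and without the replicate block, and called ID3 higher there (0.40, edgeR adjusted p = 0.00454). In BafA1 NPC against control NPC, the genes called lower were 1 in a fit to these 2 groups only, and 1 to 2 when each library was left out in turn. All-gene calls there split 4309 higher to 4277 lower, against 2686 to 5297 with limma on log2(FPKM + 1), 2683 to 5285 with a pseudocount of 0.1, 2520 to 5268 over all genes, and 3104 to 5681 with library totals alone, which moved the median of all genes by -0.12. The replicate block gave 4112 higher and 4130 lower. Deviations from the group mean were also correlated between libraries of different groups. For same-numbered libraries, r was -0.040 to -0.023 for control and BafA1, 0.009 to 0.066 for hESC and control, and -0.010 to 0.019 for hESC and BafA1. Differently numbered libraries gave 0.003 to 0.022, -0.037 to 0.023 and -0.015 to 0.018. Such values do not show whether a replicate number marks a shared batch or differentiation, which the labels do not say. Levels per length moved past their SD in 21 of 30 cases when CPM per kb of exons replaced FPKM.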
